A study of Mus musculus with 67 samples.

Results

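Junb, Jun, Jund, Fos, Fosb, Nr4a1, Egr1, Dusp1, Ier2 and Zfp36 are immediate early genes, a set whose transcription rises within minutes of a stimulus to the cell. These 10 of 24530 genes were chosen by measured values: Junb was lower on a high-fat high-sugar (HFHS) diet in conventional T cells from the rest brain of Balb/c mice, and the others were named with it as members of the same response. All 10 were found in both experiments, the pilot listing 24421 genes.

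Products of the Jun and Fos families pair through leucine zippers to form AP-1, a transcription factor that binds regulatory DNA after T-cell receptor, cytokine and stress signals. Nr4a1 and Egr1 encode transcription factors induced by the same signals, and Dusp1 and Zfp36 encode proteins that damp the response. In T cells AP-1 acts together with NFAT in activation, and tissue handling and cell sorting are known to induce these genes as well.

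Bulk RNA sequencing was performed on T cells sorted from mouse hypothalamus and from the brain without the hypothalamus (rest brain). The second experiment held 59 libraries, 29 of CD4+ CD25- Foxp3GFP- CD44hi CD62Llow conventional T cells (Tconv) and 30 of regulatory T cells (Treg), from Foxp3GFP reporter mice given HFHS or standard diet (SD). Balb/c mice were female and C57Bl/6J mice male, so that strain and sex cannot be told apart. Each library came from pooled cells; where the methods describe the Tconv samples they give 5 mice each, and they put the age at the start of the diet at 6 weeks. Several pool labels, such as 77_80, 11_14, 15_21 and 47_25, do not span 5 numbers.

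Groups of cell type, tissue, strain and diet held 4 libraries each, apart from 3 in Tconv of rest brain on HFHS in C57Bl/6J, 3 on each diet in Tconv of rest brain in Balb/c, and 2 in Treg of rest brain on SD in Balb/c. Libraries of a strain and diet with the same pool label were taken to share mice, since the label reads as a range of mouse numbers, which neither the labels nor the methods state. Some labels go against that reading. As ranges, 15_21 would hold 16_20, a replicate of the same Balb/c HFHS groups, and 47_25 runs downward. The C57Bl/6J hypothalamic Tconv SD pool labelled 67_66 was kept under that label and so was paired with no other library. The pilot held 8 libraries, 1 per group and all from female hypothalamus: CD4+ T cells (CD25neg) and CD25high cells from ob/ob mice, which lack leptin, and from Bl6 controls (7 mice per pool), and CD44low T cells and Foxp3GFP+ Treg of Balb/c reporter mice after 16 weeks of HFHS or SD (9 mice per pool).

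Levels are given as CPM, the estimated counts scaled to the library total. Totals ran from 11340063 to 28187008 counts in Tconv, from 8938477 to 24985589 in Treg of rest brain and from 1724149 to 38482277 in Treg of hypothalamus. Hypothalamic Treg libraries were sparse, with a median of 4480 genes over 10 counts against 10100 in Tconv. In them Egr1 had 3 counts or fewer in 8 of 16 libraries, Fosb in 7, and Jun and Nr4a1 in 5 each, while the other 6 members were above 3 counts in all 16. A p-value here measures spread between pools of mice, and fewer cells of a type and less RNA per cell cannot be told apart in bulk samples.

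Several libraries stood apart. The SD pool 11_15 of hypothalamic Treg in C57Bl/6J carried 12767 CPM over the 4 endothelial markers (Ly6c1 the most abundant, at 8850 CPM) and 167 CPM over the 5 T-cell markers found, against a median of 6876 CPM. It also carried 2232 CPM over macrophage or monocyte markers (Lyz2 at 1682 CPM). The SD pool 43_47 of the same group carried 974 CPM over erythroid markers and 444 CPM over B-cell markers, against medians of 0 in hypothalamic Treg. The SD pool 32_36 of hypothalamic Treg in Balb/c carried 29788 CPM over the 10 microglial markers, with 4134 CPM over T-cell markers. The SD pool 42_46 of rest brain Tconv in Balb/c carried 853 CPM over microglial markers and 632 CPM over neuronal markers. In Treg of Balb/c rest brain, the 5 neuronal markers summed to 1205 CPM in the HFHS pool 15_21 and 520 CPM in the SD pool 42_46 (Meg3 the most abundant, at 1143 and 440 CPM), and the 5 oligodendrocyte markers to 749 CPM in the SD pool 42_46. Fits holding hypothalamic Treg were also run without the SD pools 11_15 (C57Bl/6J) and 32_36 (Balb/c). Every fit was also run with each library left out in turn.

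The 6 Balb/c rest brain Tconv libraries, from which the choice was made, differed from the other 23 Tconv libraries in base composition too. GC-rich genes, the 2437 genes above 54.3% GC among the 9749 genes with a GC value, held 14.4 to 17.7% of their counts against 19.4 to 23.4% in the others. Within the 6, HFHS libraries lay at 14.4, 15.2 and 15.2% and SD libraries at 16.8, 16.9 and 17.7%. Of the members 8 lie above that limit, up to 62.6% in Junb and 67.1% in Jund, and Fos (54.1%) and Dusp1 (52.8%) lie below it, against a median of 49.6%. These 6 libraries were kept out of every main test of the members.

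The levels that chose the genes are given as a description. Junb was at 98.1, 98.5 and 115 CPM in the HFHS libraries and at 206, 405 and 483 CPM in the SD libraries, a log2 difference of -1.59. All 6 lay below the lowest of the other Tconv libraries, at 533 CPM. Of the 10 members 8 were lower and 2 higher on HFHS, with a median log2 difference of -0.63 against -0.06 over all genes. Jund was at -1.26, Zfp36 at -1.0, Egr1 at -0.83, Dusp1 at -0.80, Ier2 at -0.46, Fos at -0.41 and Nr4a1 at -0.20, whereas Jun was at 0.06 and Fosb at 1.11. With an offset for GC content, chosen after seeing the data, Junb was at -1.12, Jund at -0.65 and Ier2 at -0.075. edgeR called 0 of 11003 genes in this contrast (0%), with 1373 at an unadjusted p under 0.05 and 576 called by DESeq2, and nothing is read from it here. Low levels in these 6 libraries were shared across diets by Jun, at 5.52 to 20.2 CPM against 23.2 CPM or more in the other Tconv libraries, and were absent for Ier2, at 312 to 699 CPM against 166 to 586 CPM, for Fosb, at a median of 48.9 CPM against 51.1 CPM, and for Nr4a1, at a median of 20.1 CPM against 21.6 CPM. Of the 6 libraries, 5 lay below all other Tconv libraries for Jund, 4 each for Fos, Dusp1 and Zfp36, and 3 for Egr1.

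**Figure D1:**
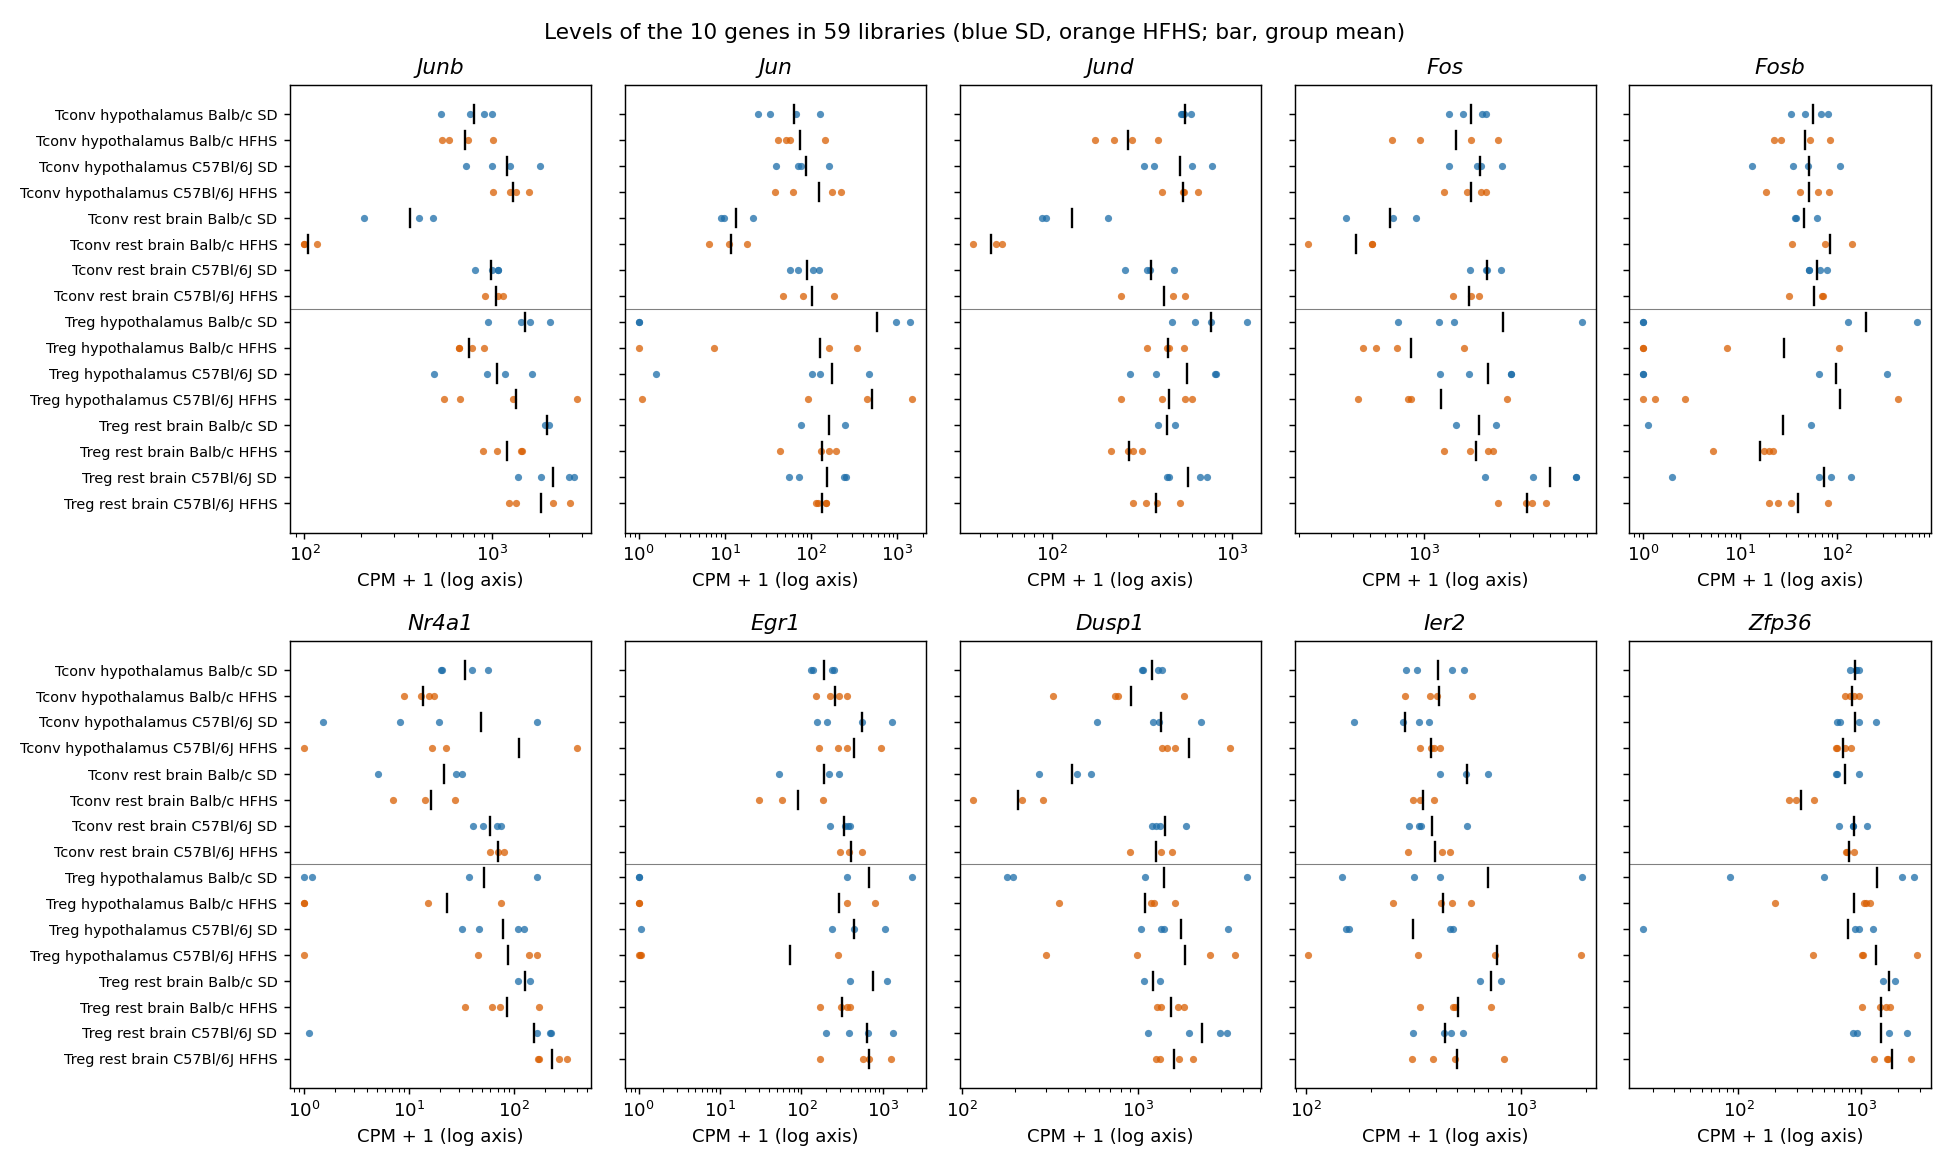
Level of each gene in each of the 59 libraries of the second experiment, as CPM plus 1 on a log axis, by cell type, tissue, strain and diet; points are libraries, and bars are group means. Balb/c rest brain Tconv libraries lie lowest for Junb, at 98.1 to 483 CPM.

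Per length of transcript, in the 23 Tconv libraries outside Balb/c rest brain, Fos was the highest member at a mean of 1177 TPM, which scales for transcript length and library total (SD 372), followed by Dusp1 (941, SD 466), Junb (737, SD 274) and Zfp36 (643, SD 167). Ier2 (341, SD 91.6), Jund (197, SD 80.1) and Egr1 (153, SD 134) formed the middle. Jun (35.8, SD 24.2), Nr4a1 (29.8, SD 47) and Fosb (17.9, SD 9.17) were lowest. The steps from Zfp36 down to Ier2 and from Ier2 down to Jund were larger than either SD, and the other neighbours lay within 1 SD of at least 1 of the pair.

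Junb encodes a Jun family subunit. In the hypothalamus of Balb/c, Junb in Tconv was at 533, 762, 907 and 991 CPM on SD and at 537, 591, 743 and 1005 CPM on HFHS. Both diets covered the same range. The log2 difference was -0.12 (SE 0.23, adjusted p 1.0; 0.08 with an offset for GC content). In C57Bl/6J it was at 725, 995, 1244 and 1804 CPM on SD and at 1005, 1238, 1340 and 1567 CPM on HFHS, with the groups overlapping. In C57Bl/6J rest brain it was at 810, 1001, 1067 and 1077 CPM on SD and at 918, 1075 and 1145 CPM on HFHS, a log2 difference of 0.02 (SE 0.14). The lower Junb of the Balb/c rest brain Tconv was thus not detected in any of the other 3 Tconv groups. Whether the diet effect in the rest brain differs between strains was not tested, since the Balb/c libraries chose the genes.

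Junb in Treg of Balb/c rest brain was at 1899 and 2013 CPM on SD and at 897, 1054, 1420 and 1442 CPM on HFHS. The HFHS libraries lay below both SD libraries. The log2 difference was -0.69 (SE 0.22; -0.79 to -0.60 with 1 library left out, and -0.42 with the GC offset) and missed the threshold of 0.05 in edgeR (adjusted p 0.897) but passed it in DESeq2 (adjusted p 0.0155). In C57Bl/6J rest brain Treg the diets overlapped, at 1373, 1815, 2572 and 2713 CPM on SD and at 1223, 1335, 2104 and 2602 CPM on HFHS. The difference between the strains' diet effects was -0.44 on the log2 scale (SE 0.41, adjusted p 1.0), and so was not called. With 1 library left out it ran from -0.59 to -0.22. In hypothalamic Treg of Balb/c, Junb was at 953, 1418, 1594 and 2037 CPM on SD and at 662, 665, 782 and 908 CPM on HFHS, without overlap. That log2 difference was -0.93 (SE 0.44, adjusted p 1.0), and with the GC offset, chosen after seeing the data, it turned to 0.18.

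Jund encodes a Jun subunit that is also present in resting cells. In hypothalamic Tconv of Balb/c it was at 523, 526, 541 and 590 CPM on SD and at 172, 222, 279 and 386 CPM on HFHS. The groups did not overlap, and the SD libraries lay close together. The log2 difference was -1.01 (SE 0.22, p 7.2e-04), which after adjustment over 10028 genes did not pass in edgeR (adjusted p 0.516) and passed in DESeq2 (adjusted p 0.0012). In C57Bl/6J the same cells were at 322, 366, 594 and 775 CPM on SD and at 409, 536, 538 and 646 CPM on HFHS, with full overlap. The difference between the strains' diet effects was -1.10 on the log2 scale (SE 0.36, p 0.0067, adjusted p 0.954), and so was not called. In Treg of Balb/c rest brain Jund was at 388 and 482 CPM on SD and at 211, 264, 282 and 314 CPM on HFHS. The log2 difference was -0.69 (SE 0.24, adjusted p 0.897, -0.85 to -0.54 with 1 library left out, and -0.44 with the GC offset). In C57Bl/6J the same cells ranged from 433 to 720 CPM on SD and from 281 to 511 CPM on HFHS, with an overlap. With 1 library left out the log2 difference there ran from -0.77 to -0.46, and the strain by diet term from -0.23 to 0.11. Jun, the subunit with the strongest transactivation, was at 0.27 (SE 0.56), 0.59 (SE 0.57) and 0.13 (SE 0.41) in the Tconv diet comparisons of Balb/c hypothalamus, C57Bl/6J hypothalamus and C57Bl/6J rest brain. With 1 library left out, Jun in C57Bl/6J hypothalamus ran from 0.12 to 1.03.

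Fos encodes the inducible partner of the Jun proteins. In C57Bl/6J rest brain Tconv it was at 1791, 2191, 2225 and 2684 CPM on SD and at 1445, 1823 and 2014 CPM on HFHS. The groups overlapped, and the log2 difference was -0.40 (SE 0.15, p 0.025, adjusted p 1.0). In hypothalamic Tconv of Balb/c, HFHS libraries spread from 655 to 2552 CPM around SD libraries at 1369 to 2203 CPM. Fosb was at 143 CPM or less in every Tconv library, and its diet differences in the 3 Tconv comparisons were -0.28 (SE 0.47), 0.07 (SE 0.65) and -0.19 (SE 0.33).

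Nr4a1, an orphan nuclear receptor induced by antigen receptor signals, was at 19.4, 19.6, 39.2 and 55.3 CPM on SD and at 7.93, 12, 14.6 and 16.4 CPM on HFHS in hypothalamic Tconv of Balb/c. The groups did not overlap. The log2 difference was -1.35 (SE 0.55, p 0.032, adjusted p 1.0). In C57Bl/6J single pools dominated it, at 403 CPM in the HFHS pool 06_10 against 0, 15.5 and 21.6 CPM, and at 166 CPM in the SD pool 11_15 against 0.536, 7.19 and 18.3 CPM. Egr1, a zinc finger transcription factor, was at 397 and 1129 CPM on SD and at 169, 304, 364 and 398 CPM on HFHS in Treg of Balb/c rest brain, a log2 difference of -1.30 (SE 0.45, adjusted p 0.897 by edgeR and 0.0268 by DESeq2). With 1 library left out it ran from -1.87 to -0.37. The highest HFHS library and the lower SD library lay together.

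Dusp1 encodes a phosphatase of MAP kinases, Zfp36 a protein that promotes decay of AU-rich mRNA, and Ier2 a nuclear protein. In Tconv, their diet differences outside Balb/c rest brain lay between -0.36 for Dusp1 in Balb/c hypothalamus and 0.59 for Dusp1 in C57Bl/6J hypothalamus. Over both diets together, Zfp36 had the lowest spread of the members relative to its mean in hypothalamic Tconv of Balb/c, at 806 to 970 CPM on SD and 736 to 958 CPM on HFHS. On SD alone Jund spread less, with a standard deviation of 31.1 around a mean of 545 CPM against 67.4 around 894 CPM for Zfp36.

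Over the diet comparisons that did not choose the genes, edgeR called 0 of the 10 members. It called 0% of all genes as well in each: 0 of 10028 genes in Tconv of Balb/c hypothalamus (418 at an unadjusted p under 0.05, 48 called by DESeq2), 0 of 9714 in Tconv of C57Bl/6J hypothalamus (199 and 14), and 0 of 10958 in Tconv of C57Bl/6J rest brain (470 and 23). In Treg the counts were 0 of 4576 in Balb/c hypothalamus (199 and 185), 0 of 5051 in C57Bl/6J hypothalamus (63 and 22), 0 of 10672 in Balb/c rest brain (551 and 497) and 0 of 8606 in C57Bl/6J rest brain (228 and 88). The members were split by direction in Tconv, with 3 higher and 7 lower in Balb/c hypothalamus, 7 and 3 in C57Bl/6J hypothalamus, and 5 and 5 in C57Bl/6J rest brain. In Treg of Balb/c, 10 of 10 were lower in hypothalamus (median log2 difference -0.99 against 0.22 over all genes; Junb, Jund and Ier2 changed sign with the GC offset) and 9 of 10 in rest brain (-0.53 against 0.10). Leaving out 1 library turned 4 of the 10 in hypothalamus, Nr4a1 to 0.82, Dusp1 to 1.13 and Ier2 to 0.47 without the SD pool 37_41 and Egr1 to 1.44 without the SD pool 32_36, which was rich in microglial markers. In rest brain it turned 3 of the 9, Jun to 0.81, Fos to 0.36 and Fosb to 6.98 without the SD pool 37_41, which left 1 SD library. In Treg of C57Bl/6J, 6 were higher and 4 lower in hypothalamus, and 4 were higher and 6 lower in rest brain. The strain by diet terms likewise gave 0 members and 0% of genes, over 10875 genes in hypothalamic Tconv (493 at an unadjusted p under 0.05, 165 by DESeq2), 7715 in hypothalamic Treg (1295 and 1328) and 11711 in rest brain Treg (662 and 577).

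**Figure D2:**
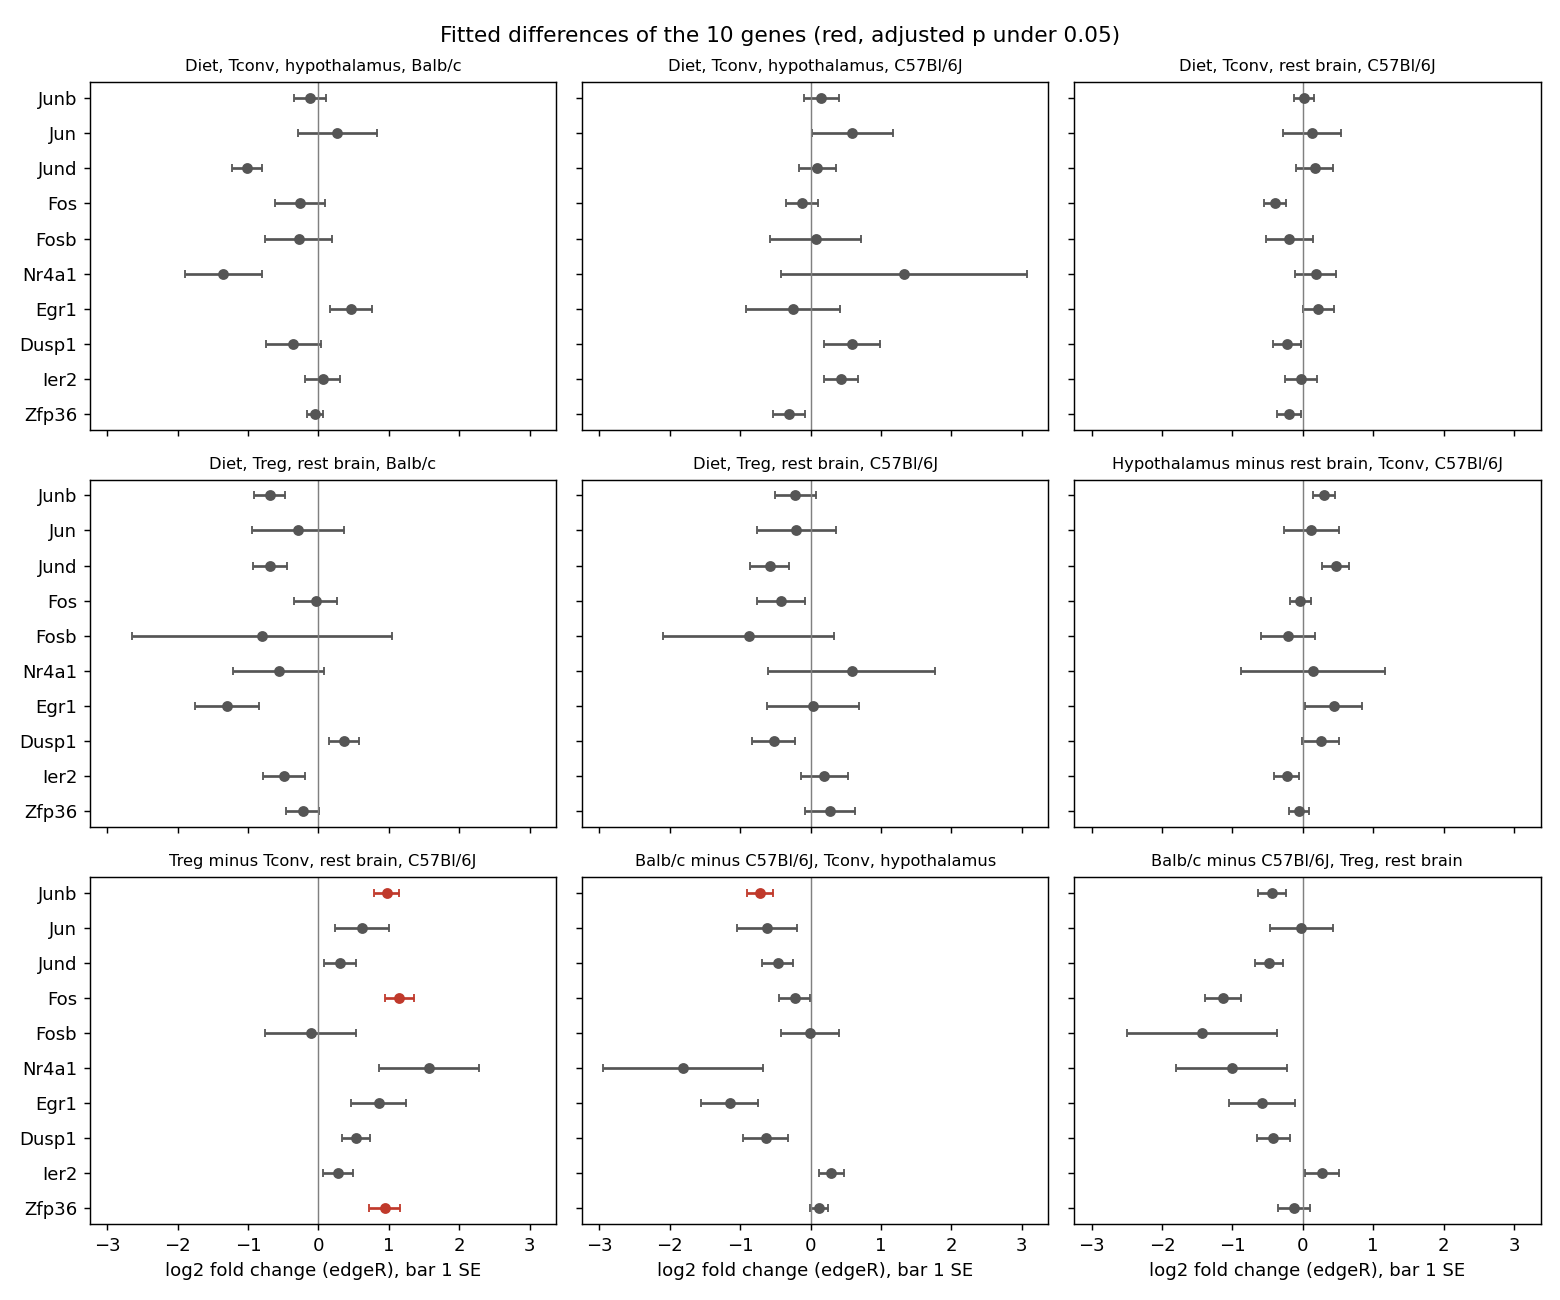
Fitted log2 difference of each gene in 9 comparisons by edgeR, with 1 SE as bars; red marks an adjusted p under 0.05. In the comparison of Treg with Tconv of C57Bl/6J rest brain, Junb, Fos and Zfp36 are red, at 0.97, 1.15 and 0.94.

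Cell types were compared in C57Bl/6J rest brain, with 8 Treg and 7 Tconv libraries. The Treg SD pools 67_71, 11_15 and 01_05 were sparse, with 6217, 5438 and 6816 genes over 10 counts against 8481 to 9622 in the other Treg and 10348 to 11146 in the Tconv libraries. Macrophage or monocyte markers reached 1583 CPM in the Tconv SD pool 67_71 (mostly Ly6c2), and CD8 T-cell markers 736 CPM in the Tconv SD pool 01_05. In rest brain Treg of both strains these markers reached 529 and 78.5 CPM at most. Their part in the differences was not tested. Junb ranged from 810 to 1145 CPM in Tconv (median 1067) and from 1223 to 2713 CPM in Treg (median 1959), without overlap. Its log2 difference was 0.97 (SE 0.18, adjusted p 0.0059). Fos ranged from 1445 to 2684 CPM in Tconv (median 2014) and from 2160 to 6974 CPM in Treg (median 3987), overlapping between 2160 and 2684 CPM, with a log2 difference of 1.15 (SE 0.21, adjusted p 0.0056). Zfp36 ranged from 662 to 1108 CPM in Tconv (median 865) and from 857 to 2555 CPM in Treg (median 1637), with a log2 difference of 0.94 (SE 0.22, adjusted p 0.025). These 3 of 10 members were called, all higher in Treg, where 3.56% of all genes were called and 1% were called higher. With the pool as a replicate block, the paired fit gave Junb 0.88 (adjusted p 0.0506), Fos 1.05 (adjusted p 0.0506) and Zfp36 0.85 (adjusted p 0.0648), so that none passed, and 83 genes in place of 408 were called. With the GC offset, chosen after seeing the data, Zfp36 was at 0.82 (adjusted p 0.0618), and it also missed the threshold without 1 of 5 libraries (adjusted p in brackets): Tconv HFHS pools 38_42 (0.0544), 77_80 (0.0568), 33_37 (0.0643), Tconv SD pool 11_15 (0.0528), Treg SD pool 67_71 (0.0573). With 1 library left out, Junb ran from 0.88 to 1.06, Fos from 1.04 to 1.29 and Zfp36 from 0.78 to 1.06, and 2 to 4 members were called. DESeq2 called 1307 genes. Nr4a1 (log2 difference 1.57, SE 0.71), Egr1 (0.85, SE 0.39) and Dusp1 (0.54, SE 0.20) had unadjusted p-values under 0.05 and adjusted p-values of 0.374, 0.377 and 0.214; without the sparse Treg SD pool 11_15, Nr4a1 was called as well (1.79). Jun, Jund and Ier2 were higher and Fosb lower in Treg, none past 2 SE.

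In hypothalamus the comparison of cell types held both strains, with 16 Treg and 16 Tconv libraries. It called 0 of the 10 members, where 13.9% of 11283 genes were called, most of them lower in the sparse Treg libraries (median log2 difference over all genes -0.96). The members' median was 0.34, and 8 of 10 were higher in Treg. Of these 8, the paired fit by pool turned 5, Jun from 1.79 to -0.0091, Fosb from 0.81 to -4.88, Nr4a1 from 0.43 to -0.53, Dusp1 from 0.17 to -0.11 and Zfp36 from 0.37 to -0.096, and the GC offset turned Junb from 0.22 to -0.14 and Jund from 0.30 to -0.23. DESeq2 called 2659 genes, and 2534 had an unadjusted p under 0.05. With the replicate block, 5543 genes were called in place of 1563.

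Tissues were compared within a cell type. In Tconv of C57Bl/6J, 0 of 10 members were called, where 0.00871% of 11486 genes were called; edgeR put 687 genes at an unadjusted p under 0.05, and DESeq2 called 103. With the replicate block 0 genes were called. The log2 difference of hypothalamus from rest brain was 0.47 for Jund (SE 0.20, adjusted p 0.675) and 0.30 for Junb (SE 0.15, adjusted p 0.920), neither called. Over the other settings and with 1 library left out, Jund ran from 0.30 to 1.22 and Junb from 0.13 to 0.94. The highest values came with the Balb/c libraries added, which chose the members. In Treg of both strains, Fos ranged from 427 to 7531 CPM in hypothalamus (median 1213) and from 1291 to 6974 CPM in rest brain (median 2530). It was the 1 of 10 members called, lower in hypothalamus at -1.03 (SE 0.31, adjusted p 0.042), where 5.6% of 12602 genes were called and 5.51% called lower, with a median of -0.88 over all genes. In the paired fit by pool it was at -0.98 and not called (adjusted p 0.176), and no gene was called in place of 706; DESeq2 gave Fos -0.99 with an adjusted p of 0.0739, and its size factors in edgeR one of 0.0526. With 1 library left out Fos ran from -1.24 to -0.93, and it missed the threshold without 1 of 18 of the 30 libraries (adjusted p in brackets): Balb/c hypothalamic SD pools 32_36 (0.0558), 42_46 (0.0530), 06_10 (0.0564), Balb/c hypothalamic HFHS pools 16_20 (0.0637), 26_31 (0.0662), 11_14 (0.0655), C57Bl/6J hypothalamic SD pools 67_71 (0.0559), 43_47 (0.0597), C57Bl/6J hypothalamic HFHS pools 77_80 (0.0699), 06_10 (0.0752), 72_76 (0.0558), C57Bl/6J rest brain HFHS pools 38_42 (0.0510), 77_80 (0.0605), 21_25 (0.0552), Balb/c rest brain HFHS pools 26_31 (0.0570), 15_21 (0.0598), C57Bl/6J rest brain SD pools 67_71 (0.0561), 11_15 (0.0543). DESeq2 called 1848 genes, and 1222 were called without the SD pools 11_15 and 32_36, where Fos was at -1.06 (adjusted p 0.0339). Junb differed by -0.64 (SE 0.24, adjusted p 0.103), and with the GC offset by -0.95, which was called (adjusted p 0.0118).

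Strains were compared in 3 settings. In hypothalamic Tconv, Junb ranged from 533 to 1005 CPM in Balb/c (median 752) and from 725 to 1804 CPM in C57Bl/6J (median 1241), with an overlap. Its log2 difference of -0.72 (SE 0.18, adjusted p 0.044) made it the 1 member called, where 2.1% of 10875 genes were called and 1.1% called lower in Balb/c. It ran from -0.80 to -0.63 with 1 library left out. The call was lost with the GC offset, at -0.60 (adjusted p 0.0585), and without 1 of 11 of the 16 libraries (adjusted p in brackets): C57Bl/6J hypothalamic SD pools 43_47 (0.0759), 11_15 (0.0831), C57Bl/6J hypothalamic HFHS pools 06_10 (0.0824), 72_76 (0.0782), 33_37 (0.0698), Balb/c hypothalamic HFHS pools 16_20 (0.0770), 11_14 (0.0959), 26_31 (0.0930), Balb/c hypothalamic SD pools 37_41 (0.0802), 32_36 (0.0501), 42_46 (0.0859). DESeq2 called 542 genes. Egr1 was at -1.15 (SE 0.41, adjusted p 0.229) and Jund at -0.47 (SE 0.22, adjusted p 0.491). In hypothalamic Treg 0 of 10 members were called, where 0.0389% of 7715 genes were called (292 at an unadjusted p under 0.05, 250 by DESeq2). In rest brain Treg 0 of 10 were called, where 0.299% of 11711 genes were called (1045 at an unadjusted p under 0.05, 300 by DESeq2). There Fos ranged from 1291 to 2507 CPM in Balb/c and from 2160 to 6974 CPM in C57Bl/6J, a log2 difference of -1.14 (SE 0.25, adjusted p 0.0910 by edgeR and 0.0018 by DESeq2).

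Over all groups, Junb stood highest in SD Treg of C57Bl/6J rest brain, at 2118 CPM (SD 634, n = 4), and lowest in HFHS Tconv of Balb/c rest brain, at 104 CPM (SD 9.84, n = 3). From the highest down to HFHS Tconv of Balb/c hypothalamus, at 719 CPM (SD 210), each group overlapped the next. Fos ran from 5030 CPM (SD 2364, n = 4) in SD Treg of C57Bl/6J rest brain to 415 CPM (SD 165, n = 3) in HFHS Tconv of Balb/c rest brain, each group overlapping the next. Zfp36 ran from 1774 CPM (SD 550) in HFHS Treg of C57Bl/6J rest brain to 322 CPM (SD 81.3) in HFHS Tconv of Balb/c rest brain, the only step in its order without overlap being the last.

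Whether the members moved together was described by correlating each library's deviation from its group mean. The scale was log2 of CPM plus 1, with library totals here multiplied by edgeR's TMM normalization factors (TMM-scaled CPM). The points share library preparation, depth, base composition and, where pool labels match, possibly mice. Over 29 Tconv libraries the median Pearson r of the 45 pairs was 0.45, with 42 pairs above 0, and the median Spearman rho was 0.38. Without the Balb/c rest brain libraries (n = 23) the median r was 0.46, from -0.15 to 0.84. Fosb (median r 0.73 with the other members), Jun (0.62), Nr4a1 (0.61), Dusp1 (0.61), Junb (0.59) and Fos (0.58) moved with the rest, Egr1 (0.41) and Jund (0.39) less so, and Zfp36 (0.20) and Ier2 (0.06) little. Over 30 Treg libraries the median r was 0.20, with 36 of 45 pairs above 0, the sparse hypothalamic libraries included, and over the 14 of rest brain it was 0.22, with 29 pairs above 0.

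**Figure D3:**
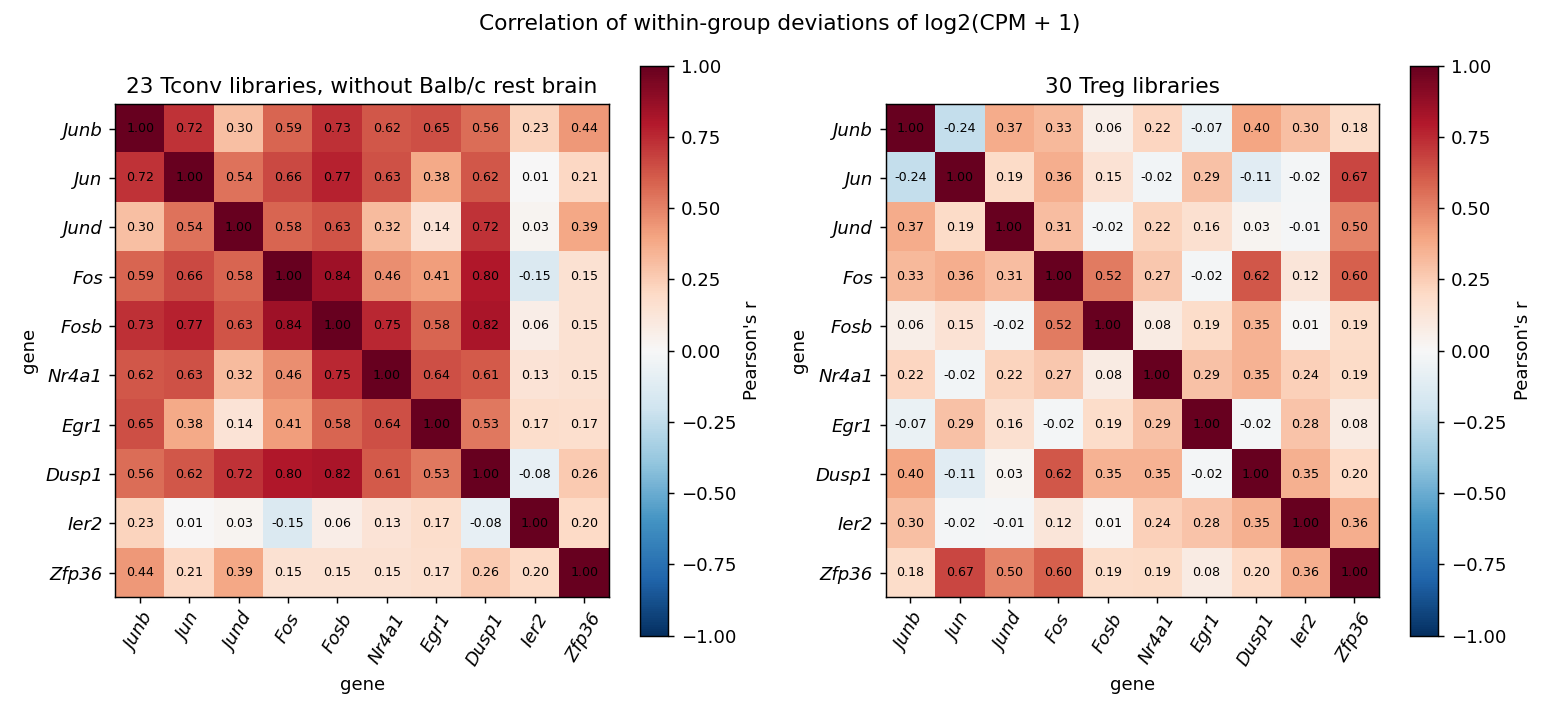
Pearson's r between pairs of genes for within-group deviations of log2 TMM-scaled CPM plus 1, in 23 Tconv libraries outside Balb/c rest brain and in 30 Treg libraries. In Tconv the values are near 0 for Ier2 (median 0.06) and highest for Fosb (median 0.73).

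Of 10016 other genes, the 5 most like the mean of the members over 29 Tconv libraries were Lpcat1 (Pearson r 0.83), Klf6 (0.81), Ppp1r15a (0.81), Sulf2 (0.78) and Ier5 (0.76), against a median r of -0.02 over those genes. Without the Balb/c rest brain libraries these stood at 0.81, 0.81, 0.78, 0.77 and 0.84. The 5 most like Junb were Vps37b (0.79), Faah (0.74), Sec14l1 (0.72), Ier5 (0.71) and Ankrd11 (0.68), and without those libraries, whose Junb levels chose the genes, they stood at 0.73, 0.69, 0.75, 0.63 and 0.73.

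A list of 78 companion genes (other AP-1 partners, immediate early factors, feedback regulators, activation markers, kinases and heat shock genes) was counted by direction, over the genes tested and over those called. In the 7 diet comparisons that did not choose the members, none of the tested genes of the list was called by edgeR. DESeq2 called 1 in Tconv of Balb/c hypothalamus, where it called 48 of 10028 genes in all. It called 1 in Tconv of C57Bl/6J rest brain (23 of 10958 genes in all). In Treg of Balb/c it called 4 in hypothalamus (185 of 4576 genes in all) and 3 in rest brain (497 of 10672). In Treg against Tconv of C57Bl/6J rest brain 39 of 75 were above 0 and 36 below, and 8 were called higher and 3 called lower, with a median log2 difference of 0.02 against -0.19 over all genes, of which 3.56% were called and 1% called higher. The paired fit called 6 of the list in place of 11, and 83 of 11470 genes in all. DESeq2 called 17 of the list, and 1307 genes in all. Those called higher in the main fit were led by Tnfrsf9 at 5.46 (SE 0.73), Il2ra at 3.74 (SE 0.39), Tnfrsf4 at 3.54 (SE 0.29), Nfkbia at 1.71 (SE 0.21) and Trib1 at 1.58 (SE 0.42). Those called lower were Dusp2 at -1.78 (SE 0.25), Dusp6 at -1.29 (SE 0.34) and Spry2, which had 3 counts or fewer in 8 of 8 Treg libraries. Il2ra encodes CD25, on which the cells were sorted. In hypothalamus, with both strains, 21 of 73 were above 0 and 52 below. There 4 were called higher and 7 called lower, where 13.9% of all genes were called. The paired fit called 32 of the list, and 5543 of 11283 genes in all. In the main fit those called higher were Tnfrsf9 (5.21), Sik1, Tnfrsf4 (3.24) and Nfkbia (1.35). Sik1 had 3 counts or fewer in 9 of 16 Treg and 12 of 16 Tconv libraries, and Tnfrsf9 in 2 and 7. The 5 of those called with the lowest fitted differences were Ier3, Bach1, Hspa1a, Csrnp1 and Fosl2, each with 3 counts or fewer in 13 to 15 of 16 Treg libraries. For 3 of these the mean CPM went the other way, at 28.4 in Treg and 26.5 in Tconv for Ier3, 13.5 and 6.73 for Bach1, and 14 and 6.74 for Hspa1a, with single Treg libraries at up to 454, 192 and 224 CPM. In Treg of hypothalamus against rest brain 15 of 75 were above 0 and 60 below, against a median of -0.88 over all genes, and 0 were called higher and 2 called lower, Csrnp1 and Egr3, with 3 counts or fewer in 14 and 15 of 16 hypothalamic libraries and, for Egr3, in 10 of 14 of rest brain, where 5.6% of all genes were called. The paired fit called 0 of the list there and 0 of all genes, and each of the 2 other filters called 1 of the list. The fit without the SD pools 11_15 and 32_36 called 5 of the list, and 1222 genes in all. DESeq2 called 7 of the list, and 1848 genes in all. Nfkbid was the 1 called by strain in hypothalamic Tconv, higher in Balb/c by 1.05 (SE 0.25), where 2.1% of all genes were called. DESeq2 called 2 of the list, and 542 genes in all. Fits with 1 library left out called 0 or 1 of the list.

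In the pilot each group had 1 library, so that no test was made, and intervals cover counting error only, since reads without molecular identifiers are not independent molecules. A gene was called at a fold above 2 or below 0.5 with more than 20 normalized reads in at least 1 library. The CD25high library of Bl6 mice went against its label: the 10 microglial markers summed to 39573 CPM, led by P2ry12 at 18729 CPM, the 5 T-cell markers to 87.4 CPM with Cd3d, Cd4 and Lck at 0, and Ikzf2, Il2ra and Ctla4 were at 0. Totals on genes ran from 99925 counts in CD25high of ob/ob, 0.391% of its reads, to 5334511 in that library, 17.1% of its reads.

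In CD44low T cells of Balb/c, 13.6% of reads were not aligned on HFHS and 1.99% on SD. The 5 T-cell markers summed to 14592 CPM on HFHS and 5375 CPM on SD, macrophage or monocyte markers to 253 and 54.3 CPM (mostly Ccr2) and oligodendrocyte markers to 67.6 and 274 CPM (mostly Mbp), and their part in the folds was not tested. Fos had 23 counts on HFHS and 6911 on SD, 176-fold lower on HFHS (95% interval 117 to 278). Zfp36 had 144 and 2555 counts, 10.4-fold lower (interval 8.80 to 12.4), and Junb 28 and 294, 6.16-fold lower (interval 4.18 to 9.44). Of the 7 members past the read threshold, 6 were called lower and 0 higher, where 37% of 6686 genes were called lower and 24.8% higher. Asking each of the 2 libraries to pass 20 normalized reads left 2 of these 6 calls. Jun, with 163 and 183 counts, went the other way at a fold of 1.52 (interval 1.22 to 1.88), as did Fosb, with 38 and 25 counts and too few reads for a call.

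In pilot Treg of Balb/c, 6.23% of reads lay on genes on HFHS and 3.84% on SD. Markers of other cells differed too, with astrocyte markers at 34.0 CPM on HFHS and 590 CPM on SD (mostly Aqp4), neuronal markers at 0 and 203 CPM (mostly Meg3), B-cell markers at 0 and 222 CPM (Ms4a1), and macrophage or monocyte markers at 760 CPM (mostly Ccr2) and 47 CPM. Their part in the folds was not tested. Fos had 3 counts on HFHS and 1640 on SD, a ratio of 657 (interval 224 to 3188), and Jun 122 and 642, 6.32-fold lower (interval 5.20 to 7.74). Egr1 and Dusp1 had 0 counts on HFHS and 264 and 516 on SD. The 95% limits, taken from these counts without a floor, put them at least 85.4-fold and 167-fold lower. Nr4a1 went the other way, with 166 and 0 counts, at least 37-fold higher by that limit. Junb barely differed, with 48 and 51 counts. Of the 8 members past the read threshold, 6 were called lower, where 32.3% of 5445 genes were called lower, and 1 higher, where 48.2% were. Of these 7 calls 2 were left when the same was asked.

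Against Bl6, CD25neg cells of ob/ob had 15 and 7 counts of Junb, 61 and 26 of Fos, 1 and 18 of Jun, and 237 and 0 of Zfp36. Of the 4 members past the read threshold, the call was lower for Junb, Fos and Jun, where 28.5% of 6440 genes were called lower. It was higher for Zfp36 (at least 8.18-fold), where 57.3% were. Where each of the 2 libraries had to pass 20 normalized reads, 1 of the 4 calls was left, and size factors over these 2 libraries alone gave 2 called members, with Fos going from a fold of 0.301 to 0.577. In the CD25high comparison 7 of the 8 members past the read threshold were called lower in ob/ob, where 54.8% of 5978 genes were called lower. Called higher were 0 members but 23.5% of genes. The Bl6 library is the one without T-cell markers, so the comparison is not one of T cells. Scaled by CPM of reads on genes, Dusp1 went from a fold of 1.41 to 4.81, past the call, and Ier2 from 0.468 to 1.60.

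Promoters were read for 8 of the members from RefSeq (build GRCm38.p6), to see what the members share beyond their levels. Each window spans 300 bases around the 1 start held for the gene. For Nr4a1 and Fosb that start lies inside the span of the transcripts. The AP-1 motif TGANTCA was in none of the 8 windows and in 7.81% of 32851 promoters, the cyclic AMP response motif TGACGTCA in that of Dusp1 and in 1.79%, and TATAAA in those of Junb and Fos and in 13.6%, on either strand. Those 3 windows are shown, with the motif in capitals, on the gene's strand: Junb (chr8:84978699-84978998, minus), Fos (chr12:85473640-85473939, plus) and Dusp1 (chr17:26508423-26508722, minus).
Junb: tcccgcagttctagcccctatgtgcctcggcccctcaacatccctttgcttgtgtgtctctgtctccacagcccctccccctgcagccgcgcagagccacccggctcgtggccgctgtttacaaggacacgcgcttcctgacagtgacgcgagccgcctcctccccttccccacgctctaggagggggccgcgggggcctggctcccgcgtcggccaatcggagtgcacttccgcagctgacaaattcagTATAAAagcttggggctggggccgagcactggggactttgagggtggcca
Fos: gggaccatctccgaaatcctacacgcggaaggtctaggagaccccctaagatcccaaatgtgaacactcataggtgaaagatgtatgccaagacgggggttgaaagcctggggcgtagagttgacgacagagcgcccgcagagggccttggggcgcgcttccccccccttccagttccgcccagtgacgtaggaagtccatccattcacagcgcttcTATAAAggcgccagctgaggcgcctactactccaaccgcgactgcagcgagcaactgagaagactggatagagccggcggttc
Dusp1: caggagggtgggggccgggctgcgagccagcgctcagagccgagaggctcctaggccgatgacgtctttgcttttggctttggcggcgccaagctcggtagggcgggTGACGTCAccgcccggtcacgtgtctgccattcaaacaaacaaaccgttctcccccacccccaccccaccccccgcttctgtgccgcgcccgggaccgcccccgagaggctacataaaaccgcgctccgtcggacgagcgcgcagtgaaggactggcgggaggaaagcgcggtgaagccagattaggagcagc

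On build GRCm38.p6, Junb, Jund and Ier2 lie on chromosome 8 (84976909 to 84978748, 70697739 to 70700616 and 84661331 to 84662852), Fosb and Zfp36 on chromosome 7 (19302696 to 19310118 and 28376784 to 28379228) and the others on chromosomes of their own.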

How the data were processed

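Sequencing reads of sorted mouse T cells were counted in 59 libraries of the second experiment and 8 of the pilot. According to the authors, pilot reads were mapped to mm10 with BWA and deposited as counts per gene symbol from HTSeq; lines that are not genes were left out. The estimated counts and the TPM values of the second experiment were made by the authors with Salmon run inside nf-core/rnaseq, whose release their methods name, per RefSeq transcript name, and deposited per library; names were summed to genes here, 34652 of 35034 names matching a gene. Versions of BWA, HTSeq and Salmon are not given in the sources used here. Members and lists were chosen with earlier results of these data known.

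Tests were made with edgeR 4.0.16 (TMM, quasi-likelihood F test) in R 4.3.3, with limma 3.58.1 and adjustment by Benjamini and Hochberg, at 0.05. Genes needed over 10 counts in as many libraries as the smallest group of cell type, tissue, strain and diet in the fit holds. In the Treg tissue comparison that was 2 libraries. The alternatives were DESeq2 1.42.0, its size factors in edgeR, 2 other filters, leaving out each library, the pool label as a replicate block, other sets of libraries, and, chosen after seeing the data, a GC offset and the removal of 2 libraries. Genes named from companion lists were the 5 with the largest change per direction among those called. Libraries with the same pool label were taken to share mice, as read from the label; as a check, the median correlation of their deviations from group means ran from -0.011 to 0.008 over 4 comparisons, and no pair was over 0.1. Pilot libraries were scaled by median ratios over 786 genes, with exact binomial intervals. Python 3.11.15 was used with numpy 2.4.6, pandas 2.3.3, scipy 1.17.1 and matplotlib 3.10.9. The pipeline was tested on simulated data. A floor of 3 counts was used for folds against 0, and intervals and floors cover counting error only.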

Additional observations from a re-analysis of the deposited data

Results flagged for a closer look

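Among 120 groups of 4 libraries and 1 gene, 14 held a library far from the other 3, by the gap in CPM relative to the range. The limit used flags about 1 in 20 groups where values are normally distributed and groups are independent. Neither was checked, and genes share libraries, so no excess over chance is read from the 14. Of these libraries 13 were the highest of their group and 1 the lowest. In Tconv these were Dusp1 at 3369 CPM and Nr4a1 at 403 CPM in the C57Bl/6J hypothalamic HFHS pool 06_10, Nr4a1 at 166 CPM in the C57Bl/6J hypothalamic SD pool 11_15, Jun at 145 CPM in the Balb/c hypothalamic HFHS pool 15_21, and Ier2 at 560 CPM in the C57Bl/6J rest brain SD pool 62_66.

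In hypothalamic Treg of C57Bl/6J, Fos stood apart at 2872 CPM and Fosb at 427 CPM in the HFHS pool 33_37, Egr1 at 283 CPM in the HFHS pool 72_76, and Dusp1 at 3279 CPM in the SD pool 43_47, the shallowest library. That library also carried the most erythroid and B-cell markers of the hypothalamic Treg. In hypothalamic Treg of Balb/c, Egr1 stood apart at 2292 CPM in the SD pool 32_36, Fos at 7531 CPM and Ier2 at 1912 CPM in the SD pool 37_41, and Fosb at 104 CPM and Zfp36, as the lowest, at 199 CPM in the HFHS pool 26_31. What set these libraries apart was not tested.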

How the results depend on the processing

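Of 1100 values of the members under other settings, 1028 kept their direction and side of the threshold, 8 were weaker, 14 stronger and 3 moved, and 47 changed sign. Of 2430 values with 1 library left out, 2243 kept them, 34 were weaker, 3 stronger and 5 moved, and 145 changed sign. In the pilot 82 of 93 values were kept, 10 moved and 1 changed sign. Member values below are log2 differences, and counts are genes at an adjusted p under 0.05. The pairing of libraries by pool is read from the pool labels and stated in neither labels nor methods, no pair's deviations correlated above 0.1, and the paired fit changed no call of a member beyond those printed here and in the report. Hypothalamic Treg libraries held 2108 to 9905 genes over 10 counts, and 1 had 1724149 counts in all.

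With DESeq2's Wald test in place of edgeR, the values below changed sign, side of the threshold or size, and the cause was not tested. Called members went from 0 to 1 (diet in Balb/c hypothalamus Tconv), from 0 to 2 (diet in Balb/c rest brain Treg), from 1 to 0 (tissue in Treg). Members called went from 0 to 1 (strain in rest brain Treg). Genes called went from 0 to 48 (diet in Balb/c hypothalamus Tconv), from 0 to 14 (diet in C57Bl/6J hypothalamus Tconv), from 0 to 23 (diet in C57Bl/6J rest brain Tconv). Counts of called genes went from 0 to 185 (diet in Balb/c hypothalamus Treg), from 0 to 22 (diet in C57Bl/6J hypothalamus Treg), from 0 to 497 (diet in Balb/c rest brain Treg). The number called went from 0 to 88 (diet in C57Bl/6J rest brain Treg), from 0 to 576 (diet in Balb/c rest brain Tconv), from 1 to 103 (tissue in C57Bl/6J Tconv). Calls among all genes went from 706 to 1848 (tissue in Treg), from 1563 to 2659 (cell type in hypothalamus), from 408 to 1307 (cell type in C57Bl/6J rest brain). For all genes, calls went from 228 to 542 (strain in hypothalamus Tconv), from 0 to 165 (strain by diet in hypothalamus Tconv), from 3 to 250 (strain in hypothalamus Treg). Called genes moved from 0 to 1328 (strain by diet in hypothalamus Treg), from 35 to 300 (strain in rest brain Treg), from 0 to 577 (strain by diet in rest brain Treg). Egr1 went from 0.034 to -0.033 (diet in C57Bl/6J rest brain Treg) and Ier2 went from -0.036 to 0.023 (tissue in Treg). Ier2 went from -0.19 to 0.025, Zfp36 -0.10 to 0.039 (strain in hypothalamus Treg).

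With the GC offset, chosen after seeing the data, the values below changed sign, side of the threshold or size, and the cause was not tested. Calls among members went from 1 to 2 (tissue in Treg), from 1 to 0 (strain in hypothalamus Tconv). Genes called went from 1 to 2 (tissue in C57Bl/6J Tconv). Junb went from -0.12 to 0.076, Zfp36 -0.051 to 0.0064 (diet in Balb/c hypothalamus Tconv) and Junb went from 0.020 to -0.033 (diet in C57Bl/6J rest brain Tconv). Junb went from -0.93 to 0.18, Jund -0.77 to 0.97, Ier2 -0.60 to 0.41 (diet in Balb/c hypothalamus Treg) and Junb went from 0.50 to -0.58, Nr4a1 0.16 to -0.0099 (diet in C57Bl/6J hypothalamus Treg). Junb went from -0.22 to 0.098 (diet in C57Bl/6J rest brain Treg) and Jund went from 0.43 to -0.11 (tissue in Treg). Junb went from 0.22 to -0.14, Jund 0.30 to -0.23 (cell type in hypothalamus) and Fosb went from -0.0048 to 0.032 (strain in hypothalamus Tconv). Jund went from 0.057 to -0.39 (strain in hypothalamus Treg) and Junb went from -1.62 to 0.18, Jund -0.59 to 2.06 (strain by diet in hypothalamus Treg). Fosb went from 0.12 to -0.070 (strain by diet in rest brain Treg). In the contrast that chose the members, Junb went from -1.59 to -1.12, Jund from -1.26 to -0.65 and Ier2 from -0.46 to -0.075 (diet in Balb/c rest brain Tconv).

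In a fit of both strains, the values below changed sign, side of the threshold or size, and the cause was not tested. Counts of called genes went from 0 to 188 (diet in Balb/c rest brain Tconv). Junb went from 0.020 to -0.0083 (diet in C57Bl/6J rest brain Tconv).

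Without the SD pools 11_15 (C57Bl/6J) and 32_36 (Balb/c) of hypothalamic Treg, a choice made after seeing the data, the values below changed sign, side of the threshold or size, and the cause was not tested. The number called went from 0 to 1 (diet in Balb/c hypothalamus Treg), from 706 to 1222 (tissue in Treg), from 0 to 1 (strain by diet in hypothalamus Treg). Egr1 went from -1.21 to 1.44 (diet in Balb/c hypothalamus Treg) and Fosb went from -0.24 to 2.30, Nr4a1 0.16 to -0.066 (diet in C57Bl/6J hypothalamus Treg). Jund went from 0.057 to -0.11, Fosb -0.72 to 0.029, Ier2 -0.19 to 0.083 (strain in hypothalamus Treg).

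With a filter of more than 10 counts in total, the values below changed sign, side of the threshold or size, and the cause was not tested. Calls among all genes went from 0 to 30 (diet in C57Bl/6J hypothalamus Treg), from 0 to 5 (diet in Balb/c rest brain Tconv), from 3 to 11 (strain in hypothalamus Treg). For all genes, calls went from 0 to 9 (strain by diet in hypothalamus Treg). Egr1 went from 0.034 to -0.030 (diet in C57Bl/6J rest brain Treg) and Fosb went from -0.0048 to 0.00018 (strain in hypothalamus Tconv). Ier2 went from -0.19 to 0.14, Zfp36 -0.10 to 0.0056 (strain in hypothalamus Treg).

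With DESeq2's size factors in edgeR, the values below changed sign, side of the threshold or size, and the cause was not tested. Called members went from 1 to 0 (tissue in Treg). Called genes moved from 0 to 7 (diet in Balb/c rest brain Tconv). Egr1 went from 0.034 to -0.033 (diet in C57Bl/6J rest brain Treg) and Ier2 went from -0.036 to 0.023 (tissue in Treg). Ier2 went from -0.19 to 0.026, Zfp36 -0.10 to 0.040 (strain in hypothalamus Treg).

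With the Balb/c libraries added, which chose the members, the values below changed sign, side of the threshold or size, and the cause was not tested. Members called went from 0 to 5 (tissue in C57Bl/6J Tconv), from 3 to 8 (cell type in C57Bl/6J rest brain). Genes called went from 1 to 2233 (tissue in C57Bl/6J Tconv), from 408 to 2190 (cell type in C57Bl/6J rest brain). Fos went from -0.035 to 0.66, Zfp36 -0.050 to 0.25 (tissue in C57Bl/6J Tconv). Since these libraries chose the members, nothing is read from these counts.

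In the paired fits, with the pool as a replicate block, the values below changed sign, side of the threshold or size, and the cause was not tested. Calls among members went from 1 to 0 (tissue in Treg), from 3 to 0 (cell type in C57Bl/6J rest brain). Counts of called genes went from 1 to 0 (tissue in C57Bl/6J Tconv), from 706 to 0 (tissue in Treg), from 1563 to 5543 (cell type in hypothalamus). The number called went from 408 to 83 (cell type in C57Bl/6J rest brain). Nr4a1 went from 0.14 to -3.78, Egr1 0.44 to -0.33, Dusp1 0.25 to -0.073 (tissue in C57Bl/6J Tconv) and Zfp36 went from -0.050 to 0.11 (tissue in C57Bl/6J Tconv). Jun went from 1.79 to -0.0091, Fosb 0.81 to -4.88, Nr4a1 0.43 to -0.53 (cell type in hypothalamus) and Dusp1 went from 0.17 to -0.11, Zfp36 0.37 to -0.096 (cell type in hypothalamus).

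With filterByExpr, the values below changed sign, side of the threshold or size, and the cause was not tested. Calls among all genes went from 706 to 409 (tissue in Treg).

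In the pilot, with more than 20 normalized reads asked of both libraries, the values below changed sign, side of the threshold or size, and the cause was not tested. Called members went from 6 to 2 (diet in pilot CD44low cells), from 7 to 2 (diet in pilot Treg), from 4 to 1 (genotype in pilot CD25neg cells). Members called went from 7 to 3 (genotype in pilot CD25high cells).

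In the pilot, with size factors over the 2 libraries compared, the values below changed sign, side of the threshold or size, and the cause was not tested. Calls among members went from 4 to 2 (genotype in pilot CD25neg cells). The fold of Fos there went from 0.301 to 0.577.

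In the pilot, with CPM of reads on genes, the folds between CD25high libraries went from 0.468 to 1.60 for Ier2, from 1.41 to 4.81 for Dusp1, from 0.0191 to 0.0653 for Jun, from 0.0299 to 0.102 for Fos, from 0.0640 to 0.219 for Fosb, from 0.00959 to 0.0328 for Egr1 and from 0.0373 to 0.127 for Zfp36; the cause was not tested. Those between Treg libraries went from 0.158 to 0.116 for Jun, from 46.1 to 33.7 for Nr4a1 and from 0.487 to 0.356 for Zfp36.

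With 1 library left out in turn, the lowest and highest values follow for results that changed sign, gained or lost a member's call or moved a count by over 1.5 times, and the cause was not tested. Called members went from 1 to 0 and 1 (tissue in Treg), from 1 to 0 and 1 (strain in hypothalamus Tconv), from 0 to 0 and 1 (strain in rest brain Treg). For all genes, calls went from 0 to 0 and 1 (diet in Balb/c hypothalamus Treg), from 0 to 0 and 3 (diet in C57Bl/6J hypothalamus Treg), from 0 to 0 and 228 (diet in Balb/c rest brain Treg). Called genes moved from 0 to 0 and 3 (diet in C57Bl/6J rest brain Treg), from 0 to 0 and 1 (diet in Balb/c rest brain Tconv), from 1 to 1 and 4 (tissue in C57Bl/6J Tconv). Genes called went from 706 to 270 and 1507 (tissue in Treg), from 408 to 242 and 451 (cell type in C57Bl/6J rest brain), from 0 to 0 and 1 (strain by diet in hypothalamus Tconv). Counts of called genes went from 3 to 1 and 3 (strain in hypothalamus Treg), from 0 to 0 and 1 (strain by diet in hypothalamus Treg), from 0 to 0 and 31 (strain by diet in rest brain Treg). Calls among members also went from 3 to 2 and 4 (cell type in C57Bl/6J rest brain). Without the C57Bl/6J hypothalamic HFHS pool 06_10, Junb was called in place of Fos (tissue in Treg). Companion genes called went from 2 to 0 and 5 (tissue in Treg), from 11 to 8 and 15 (cell type in hypothalamus), from 11 to 7 and 15 (cell type in C57Bl/6J rest brain) and from 1 to 0 and 1 (strain in hypothalamus Tconv). In the contrast that chose the members, Jun ranged from -0.36 to 0.54 and Nr4a1 from -0.88 to 0.30.

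Junb ranged from -0.32 to 0.0099, Jun -0.30 to 0.88, Ier2 -0.15 to 0.20 (diet in Balb/c hypothalamus Tconv). Zfp36 ranged from -0.11 to 0.0065 (diet in Balb/c hypothalamus Tconv). Junb ranged from -0.018 to 0.38, Jund -0.070 to 0.32, Fos -0.26 to 0.017 (diet in C57Bl/6J hypothalamus Tconv). Fosb ranged from -0.27 to 0.66, Nr4a1 -1.87 to 3.68, Egr1 -0.98 to 0.53 (diet in C57Bl/6J hypothalamus Tconv). Junb ranged from -0.082 to 0.10, Jun -0.51 to 0.48, Jund -0.030 to 0.42 (diet in C57Bl/6J rest brain Tconv). Fosb ranged from -0.37 to 0.087, Egr1 -0.0050 to 0.38, Ier2 -0.12 to 0.22 (diet in C57Bl/6J rest brain Tconv). Nr4a1 ranged from -3.33 to 0.82, Egr1 -2.58 to 1.44, Dusp1 -0.66 to 1.13 (diet in Balb/c hypothalamus Treg). Ier2 ranged from -1.0 to 0.47 (diet in Balb/c hypothalamus Treg).

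Junb ranged from -0.41 to 1.0, Jun -0.26 to 2.63, Fosb -7.32 to 2.30 (diet in C57Bl/6J hypothalamus Treg). Nr4a1 ranged from -0.26 to 0.59, Dusp1 -0.18 to 0.65 (diet in C57Bl/6J hypothalamus Treg). Jun ranged from -0.92 to 0.81, Fos -0.37 to 0.36, Fosb -1.80 to 6.98 (diet in Balb/c rest brain Treg). Jun ranged from -0.48 to 0.11, Egr1 -0.46 to 0.67, Ier2 -0.16 to 0.37 (diet in C57Bl/6J rest brain Treg). Jun ranged from -0.089 to 0.34, Fos -0.095 to 0.047, Nr4a1 -1.24 to 0.40 (tissue in C57Bl/6J Tconv). Zfp36 ranged from -0.16 to 0.011 (tissue in C57Bl/6J Tconv).

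Ier2 ranged from -0.31 to 0.054 (tissue in Treg). Fosb ranged from -0.081 to 0.93, Nr4a1 -0.090 to 1.07, Egr1 -0.88 to 0.039 (cell type in hypothalamus). Dusp1 ranged from -0.14 to 0.26 (cell type in hypothalamus). Fosb ranged from -0.40 to 0.086 (cell type in C57Bl/6J rest brain). Fosb ranged from -0.19 to 0.24 (strain in hypothalamus Tconv).

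Jun ranged from -0.90 to 0.28, Fos -0.53 to 0.11, Nr4a1 -5.02 to 0.49 (strain by diet in hypothalamus Tconv). Egr1 ranged from -0.063 to 1.43 (strain by diet in hypothalamus Tconv). Junb ranged from -0.59 to 0.086, Jun -0.88 to 0.58, Jund -0.15 to 0.24 (strain in hypothalamus Treg). Fos ranged from -0.85 to 0.13, Fosb -1.75 to 2.58, Ier2 -0.58 to 0.51 (strain in hypothalamus Treg). Zfp36 ranged from -0.36 to 0.32 (strain in hypothalamus Treg). Fos ranged from -1.36 to 0.35, Fosb -6.51 to 4.58, Nr4a1 -3.46 to 0.66 (strain by diet in hypothalamus Treg). Dusp1 ranged from -0.98 to 0.82 (strain by diet in hypothalamus Treg). Jun ranged from -0.32 to 0.16, Zfp36 -0.24 to 0.013 (strain in rest brain Treg).

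Jun ranged from -0.68 to 1.06, Jund -0.23 to 0.11, Fosb -0.89 to 7.92 (strain by diet in rest brain Treg).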
